A study of Mus musculus with 8 samples.

Results

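The genes described here encode the proteins of the mitochondrial ribosome. They were taken by name, as every row of the deposited gene table whose symbol is Mrpl or Mrps followed by a number. Of 81 such rows, 4 are named as pseudogenes and were left out, which leaves 77 genes of 24547, 48 with an Mrpl and 29 with an Mrps symbol, spread over 17 chromosomes. Poly-A RNA was sequenced from the livers of ICR mice, an outbred stock. The treated group (4 libraries) came from mice dosed by stomach tube over 30 days with a high-dose decoction of Psoraleae Fructus, the fruit of Psoralea corylifolia used as a herbal drug, and the control group (4 libraries) is labelled as control, with saline named in the protocol. The labels give neither sex, age and dose by mass nor the animal behind each library, and the p-values reflect only how these libraries vary, which may be technical in part.

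Mitochondria carry their own ribosome, which translates the few messenger RNAs of the mitochondrial genome into core subunits of the respiratory chain and ATP synthase. All of its proteins are encoded in the nucleus, made in the cytosol and imported. Some descend from proteins of the bacterial ribosome and others were added in the mitochondrial lineage. The large subunit joins amino acids and the small subunit reads the messenger RNA. The liver, rich in mitochondria, depends on this ribosome for oxidative phosphorylation.

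Library totals ran from 15864399 to 20159132 counts, and 12861 genes passed the low-count filter of the edgeR quasi-likelihood test, all 77 members among them. Member counts ran from 34 to 1465 per library, with a median of 410. Values given are CPM, counts normalised to library size with TMM factors, and fold changes are log2, treated minus control. Genes with a p under 0.05 after Benjamini-Hochberg adjustment over everything tested are termed called, and rose and fell are used of these alone. Summed CPM of 10 hepatocyte markers (with Alb and Ttr) was 119106 to 175246 in controls and 140037 to 161191 in treated libraries. These sums mostly reflect Alb, with means of 116450 and 117620 CPM. Of the 10, 5 had a positive and 5 a negative log2 fold change. Only Fga fell (called in 2 of 8 fits that omit a library, and not after the correction). DESeq2 and limma-voom each called 2 lower. Serpina1a, not called by edgeR, had every treated library below every control (log2 -0.74). Of the 10 markers of Kupffer cells and macrophages 2 fell (Adgre1 and Timd4), with a summed CPM of 561 to 1429 against 382 to 761. All 10 had a negative log2 fold change (median -0.91), and DESeq2 and limma-voom each called 5 lower. The edgeR calls of Adgre1 and Timd4 were each made in 1 of 8 fits that omit a library. Both were lost after the length and GC correction described further on (adjusted p = 0.0677 and 0.0731). With that correction 1 of the 10 was called lower, Csf1r (edgeR adjusted p = 0.0495), and the median was -1.06. Of 8 T and NK cell markers 5 were tested and 3 fell (Il2rb, Nkg7 and Cd3g), with a sum of 9.66 to 33.3 against 4.99 to 8.13; these calls were made in 4, 3 and 2 of the 8 fits, and that of Cd3g was lost after the correction (adjusted p = 0.0659). The sums for 10 endothelial and stellate markers were 593 to 664 against 418 to 574, with 1 called lower (Pecam1, in 3 of the 8 fits), and no marker of these lists was at 0 in all libraries. Fewer cells of a type and less RNA per cell cannot be told apart in bulk tissue, and the part of cell composition in the results that follow was not tested. Control 4 had the lowest macrophage and T and NK cell sums of the controls.

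Many mitochondrial ribosomal protein transcripts were more abundant in treated livers. Of 77 members 22 rose and none fell (edgeR), which is 28.6% called higher, beside 5.46% higher and 3.75% lower among all genes tested. The rises were modest, from 0.37 to 1.32 on the log2 scale, and 4 of them were above 1. The median log2 fold change was 0.32 over the members and -0.04 over all genes tested, and 63 of 77 members had a positive value, beside 46.7% of all genes. In 30 members every treated library lay above every control (10.2% of all genes tested did so), and in 1, Mrpl3, every treated library lay below (8.7% of all genes). At an unadjusted p under 0.05 the counts were 42 higher and 1 lower, beside 1809 higher and 1968 lower of all 12861 genes tested. DESeq2 called 30 higher and 1 lower (9.03% and 8.18% of all genes), and limma-voom 30 and 1 (9.21% and 7.03%); the lower one was Mrps18b with both tools. Of the 55 members not called, 41 had a positive and 14 a negative log2 fold change. In 9 of these 55 (Mrpl9, Mrpl30, Mrpl33, Mrpl37, Mrpl42, Mrpl43, Mrpl44, Mrps25 and Mrps36) every treated library was above every control.

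**Figure D1:**
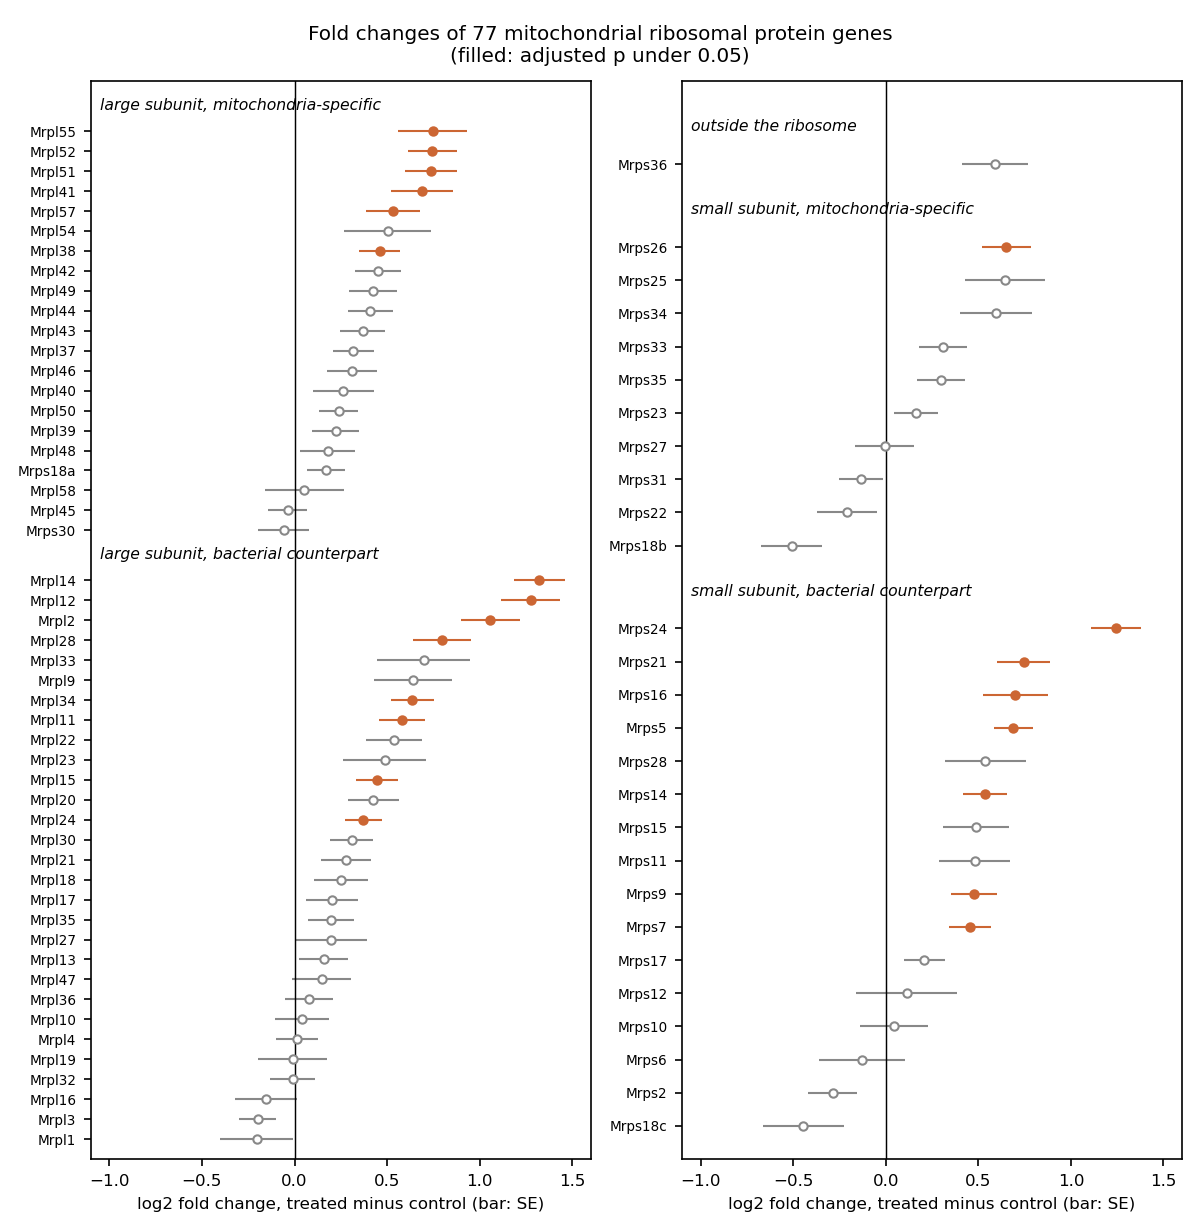
Log2 fold change (treated minus control, horizontal axis) with its standard error for each of the 77 genes, grouped by subunit and by whether a bacterial counterpart was assigned. Filled orange points were called at an adjusted p under 0.05. The 22 called genes all lie to the right of 0, and the 3 lowest points are Mrps18b, Mrps18c and Mrps2.

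Together the 77 genes took 0.165, 0.188, 0.168 and 0.188% of all counts in controls 1 to 4 and 0.209, 0.218, 0.233 and 0.226% in treated libraries 1 to 4, or 0.178 ± 0.0124% and 0.221 ± 0.010% (SD, n = 4 each). No treated library overlapped the controls. The libraries were not alike within a group. For each gene the deviation of a library from the gene's mean log2 CPM was taken, and its median over the members was -0.19, -0.19 and -0.21 in controls 1 to 3 but -0.03 in control 4. In the treated group it was 0.10 and 0.06 in libraries 1 and 2 and 0.32 and 0.24 in libraries 3 and 4. Treated library 3 held the highest value of 39 of the 77 genes and treated library 4 that of 17, while 63 genes had their lowest value in a control. In the same libraries the median deviation of all tested genes shorter than 2000 bases was -0.03 in control 4, -0.18 to -0.12 in the other controls and 0.23 in treated library 3. The number of calls changed when a library was left out, and each such fit also has a smaller group. Without treated library 3 it was 6 members (1.12% of all genes called higher), without control 3 it was 7 (2.18%), and without control 4 it was 33 (9.35%). Leaving out treated library 4 gave 11 (2.57%), control 2 gave 12 (3.15%), treated 1 and treated 2 gave 13 each (2.77% and 2.73%), and control 1 gave 16 (5.35%). The median log2 fold change of the members stayed between 0.32 and 0.39 in these 8 fits. Whether the level of short genes in a library bears on these counts was not tested here beyond the correction for length and GC content given further on.

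**Figure D2:**
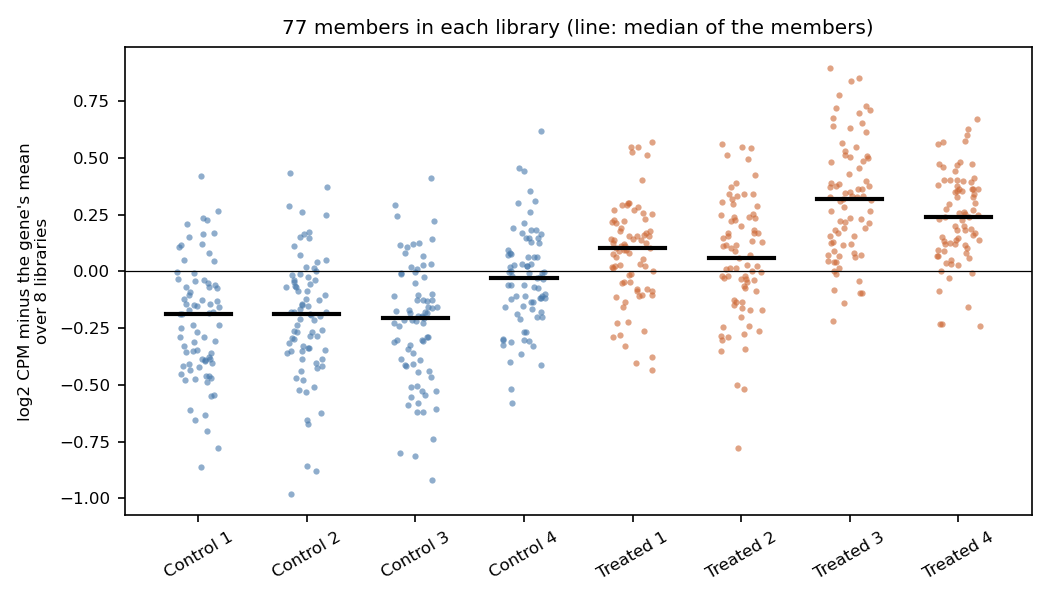
Log2 CPM of each member minus that gene's mean over the 8 libraries (vertical axis) for every library, controls in blue and treated in orange, with the median of the members as a black line. The medians run from -0.21 in control 3 to 0.32 in treated library 3, and control 4 at -0.03 lies nearest to the treated libraries among the controls.

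Of 29 large-subunit proteins with a bacterial counterpart 8 rose, with a median log2 fold change of 0.28. Positions are gene spans on GRCm38 as GENCODE M21 gives them. Mrpl14, a core protein at the interface with the small subunit (chromosome 17, 45686322 to 45698495), stood at 15.3, 15.3, 12.7 and 18.1 CPM in controls 1 to 4 and at 35.8, 35.3, 44.9 and 37.3 CPM in treated libraries 1 to 4. Every treated library was well above every control, and the mean rose from 15.3 ± 2.19 to 38.3 ± 4.48 CPM (SD, n = 4 each; log2 fold change 1.32, SE 0.14, adjusted p = 0.00267). Mrpl12 forms the flexible stalk that recruits translation factors (chromosome 11, 120484613 to 120489065) and stood at 18.6, 12.3, 13.9 and 18.4 CPM in controls 1 to 4 and at 35.6, 34.4, 44.1 and 38.8 CPM in treated libraries 1 to 4. Its groups were also far apart, with a rise from 15.8 ± 3.2 to 38.2 ± 4.33 CPM (log2 fold change 1.27, SE 0.16, adjusted p = 0.00501). Mrpl2, which lies close to the catalytic centre (chromosome 17, 46646229 to 46650139), stood at 22.7, 16.4, 19.7 and 26.2 CPM in controls 1 to 4 and at 40.2, 44.3, 52.1 and 40.2 CPM in treated libraries 1 to 4, with treated library 3 highest and control 4 the nearest of the controls (log2 fold change 1.06, SE 0.16, adjusted p = 0.00799). With any library left out Mrpl14, Mrpl12 and Mrpl2 kept their call, at adjusted p-values (edgeR) of at most 0.0126, 0.0262 and 0.0349.

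Mrpl28 rose from 23 ± 5.26 to 40 ± 2.93 CPM (log2 0.80, SE 0.16), and its control 4, at 30.7 CPM, was above the other controls at 18.8 to 21.4 CPM. Mrpl34, a short protein held in the ribosomal RNA, rose from 21.6 ± 2.75 to 33.5 ± 1.44 CPM (log2 0.63, SE 0.12), and Mrpl11 of the stalk base from 20.7 ± 1.84 to 30.9 ± 3.94 CPM (log2 0.58, SE 0.12). The weakest calls of this group were Mrpl15 (log2 0.45, adjusted p = 0.04) and Mrpl24 of the peptide exit tunnel (log2 0.37, adjusted p = 0.0478), each called in 1 of 8 fits that omit a library (the one without control 4). Other core proteins were close to equal in both groups. Mrpl10, the stalk protein that anchors Mrpl12, stood at 31.1 ± 4.86 against 32 ± 4.23 CPM (adjusted p = 0.876), and Mrpl4 at 23.3 ± 2.73 against 23.6 ± 1.31 CPM (adjusted p = 0.95). Of these neither was called. Mrpl3 stood at 25.9 ± 1.09 against 22.5 ± 1.37 CPM, lower in each treated library than in any control but not called (log2 -0.20, SE 0.10, adjusted p = 0.211). These 3 were chosen after their values were seen. The largest uncalled differences of this group were those of Mrpl33 (2.53 ± 0.351 against 4.12 ± 1.05 CPM, log2 0.70, SE 0.25) and Mrpl9 (33.3 ± 10.2 against 51.9 ± 7.52 CPM, log2 0.64, SE 0.21).

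Among 21 mitochondria-specific proteins of the large subunit 6 rose, with a median of 0.37. Mrps18a and Mrps30 are counted here since both sit in the large subunit despite their names. Mrps18a, and Mrps18b of the small subunit, were grouped as mitochondria-specific. Their paralog Mrps18c was grouped with the proteins that have a bacterial counterpart. Mrpl52 (chromosome 14, 54426909 to 54429756) stood at 25.2, 25.9, 28.1 and 28.9 CPM in controls 1 to 4 and at 39.1, 40.7, 56.5 and 44.8 CPM in treated libraries 1 to 4. Its controls lay close together and all treated libraries were above them (log2 fold change 0.74, SE 0.13, adjusted p = 0.0137), and it was called with each library left out. Mrpl51 rose from 30.3 ± 3.38 to 50.5 ± 7.85 CPM (log2 0.74, SE 0.14), and on the log2 scale Mrpl55 by 0.75 (SE 0.19), Mrpl41 by 0.69 (SE 0.17) and Mrpl57 by 0.53 (SE 0.15). Of the 8 fits that omit a library, Mrpl55 was called in 2 and Mrpl41 and Mrpl57 in 1 each, the one without control 4. Mrpl38, a protein of the central protuberance, rose from 46.1 ± 4.77 to 63.4 ± 4.08 CPM (log2 0.46, SE 0.11). Mrpl45, which ties the ribosome to the inner membrane near the exit tunnel, stood at 24.6 ± 1.52 against 24 ± 1.96 CPM (adjusted p = 0.851), Mrps30 at 19 ± 2.43 against 18.3 ± 2.24 CPM and Mrpl58, a peptidyl-tRNA hydrolase built into the ribosome, at 18 ± 4.45 against 18.7 ± 4.47 CPM. None of these was called, and they too were chosen after their values were seen.

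The small subunit also rose in part. Of 16 proteins with a bacterial counterpart 7 rose, with a median of 0.48, and of 10 mitochondria-specific ones 1 rose, with a median of 0.23; the difference between these groups was not tested. Mrps24, at the entry of the messenger RNA channel (chromosome 11, 5703983 to 5715680), stood at 32.8, 23.5, 25.5 and 29.7 CPM in controls 1 to 4 and at 60.9, 62.9, 76.3 and 63.6 CPM in treated libraries 1 to 4. All treated libraries were far above the controls, and the mean rose from 27.9 ± 4.2 to 66 ± 7.0 CPM (log2 fold change 1.24, SE 0.14, adjusted p = 0.00301). Mrps5, at the same channel (chromosome 2, 127587222 to 127606829), stood at 26.4, 26.8, 26.5 and 27.5 CPM in controls 1 to 4 and at 37, 43.1, 45.8 and 47.1 CPM in treated libraries 1 to 4. The controls were nearly equal and the treated libraries were all higher (log2 fold change 0.69, SE 0.11, adjusted p = 0.00868). Both genes were called with each library left out.

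Mrps21 rose from 15.5 ± 2.34 to 25.9 ± 3.42 CPM (log2 0.74, SE 0.14), Mrps26, the called mitochondria-specific protein, from 16.6 ± 2.23 to 26.1 ± 2.69 CPM (log2 0.65, SE 0.13) and Mrps14 of the subunit head from 20.4 ± 1.84 to 29.6 ± 3.23 CPM (log2 0.54, SE 0.12). On the log2 scale Mrps16, Mrps7 and Mrps9 rose by 0.70 (SE 0.18), 0.45 (SE 0.11) and 0.48 (SE 0.13). Mrps16 and Mrps9 were called in 1 of the 8 fits that omit a library, the one without control 4, and Mrps7 in 2. Mrps16 was the only called member whose groups overlapped, with control 4 and treated library 2 both at 22.2 CPM. Mrps12 of the decoding centre, picked with its values in view, stood at 22.1 ± 3.33 against 23.9 ± 9.69 CPM, with treated libraries from 12.8 to 36.3 CPM on both sides of the controls. Mrps25, not called, stood at 5.95 ± 1.65 against 9.31 ± 1.04 CPM (log2 0.64, SE 0.22). The 3 lowest fold changes of all members were in this subunit. Mrps18b stood at 15.6, 15.7, 13.8 and 10.8 CPM in controls 1 to 4 and at 10.4, 8.15, 10.9 and 9.8 CPM in treated libraries 1 to 4 (log2 -0.51, SE 0.16, adjusted p = 0.0788), with control 4 inside the treated range. Mrps18c, its paralog, stood at 7.03 ± 1.3 against 5.17 ± 1.2 CPM (log2 -0.45, SE 0.22) and Mrps2 at 46.4 ± 4.53 against 38.1 ± 5.66 CPM (log2 -0.29, SE 0.13). The third paralog, Mrps18a, stood at 19.7 ± 1.02 against 22.1 ± 1.46 CPM (log2 0.17, SE 0.11), and reads of such related genes may be shared. Without control 4 Mrps18b was called lower, at a log2 fold change of -0.61 (adjusted p = 0.0237; 8.45% of all genes were called lower in that fit). Mrps36 belongs, despite its name, to the oxoglutarate dehydrogenase complex and not to the ribosome, and stood at 6.41 ± 1.07 against 9.66 ± 1.39 CPM (log2 0.59 with SE 0.18, adjusted p = 0.066).

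**Figure D3:**
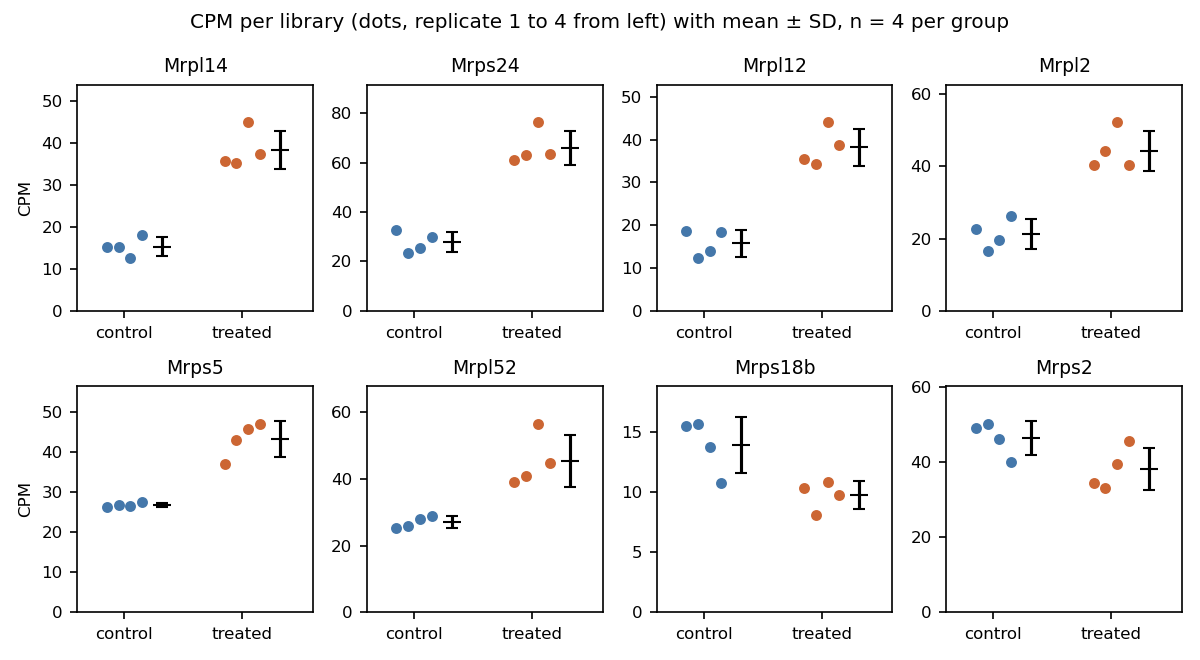
CPM (vertical axes, from 0) in each control (blue) and treated (orange) library, with mean ± SD of 4 libraries in black, for the 6 members called in every fit with a library left out and for Mrps18b and Mrps2, which were not called. In the 6 called genes no treated library reaches down to a control, as in Mrps5, where controls lie at 26.4 to 27.5 CPM and treated libraries at 37 to 47.1 CPM.

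FPKM values differed widely between the members, and they depend on the length by which each count is divided. On the deposited FPKM scale, which divides by gene length, the mean over all 8 libraries ran from 0.451 to 45.1 FPKM, with a median of 9.36. Mrpl34 was highest, at 35.9 ± 2.7 FPKM in controls and 54.3 ± 2.78 FPKM in treated libraries, followed by Mrpl52, at 24.7 ± 1.97 FPKM in controls and 40 ± 5.39 FPKM in treated libraries, and Mrps24, at 19.2 ± 1.94 FPKM in controls and 44.2 ± 3.34 FPKM in treated libraries. Mrpl27 (26.9 ± 7.46 FPKM in controls and 29.8 ± 4.42 FPKM in treated libraries) and Mrpl50 (26.2 ± 2.69 FPKM in controls and 29.9 ± 1.88 FPKM in treated libraries) came next and were not called. In controls the mean ± SD ranges of Mrpl27, Mrpl50 and Mrpl52 overlapped each other, and those of Mrpl34 and Mrpl27 overlapped too. The lowest were Mrpl33 (0.353 ± 0.0654 FPKM in controls and 0.549 ± 0.117 FPKM in treated libraries), Mrps25, Mrpl19, Mrpl48 and Mrps10, with means over all libraries of 1.16, 1.78, 2.42 and 2.55 FPKM. The length behind these values was recovered from the deposited FPKM, and was 7326 bases for Mrpl33 and 607 for Mrpl34. For Mrpl48 and Mrps10 it was 8152 and 8079 bases. In CPM the means of Mrpl48 and Mrps10 over all libraries were 19.8 and 20.6, beside 27.5 for Mrpl34. Those of Mrpl33, Mrps25 and Mrpl19 were 3.32, 7.63 and 9.69 CPM. How much of the FPKM ranking follows length was not tested. The recovered length equalled the exonic bases of GENCODE M21 for Mrpl33. For Mrpl43 (1213 against 1520 bases) and Mrpl49 (1722 against 1876) it was below them. Exons of Mrps25 and Nr2c2, on opposite strands, overlap over 69.8% of the exonic bases of Mrps25, so its reads and those of its partner cannot be told apart without strand. Exon overlaps of at least 10% with another gene, on either strand, exist for 16 members, 4 of them called. Mrpl12, Mrpl14 and Mrpl24 overlap a gene on the opposite strand. Mrps24 shares 15.4% of its exonic bases with Urgcp on the same strand, where strand would not separate the reads.

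Gene length and GC content ran with the fold changes in these libraries. Over all tested genes the median log2 fold change went from 0.29 in the shortest of 10 equal bins to -0.18 in the longest, and 24 of the 77 members fall in the shortest bin and 0 in the longest. Spearman's rho across all genes was -0.241 with length and 0.309 with GC content, and across the members -0.279 and 0.313; genes are not independent replicates, and all share these 8 libraries. A correction that removes a smooth trend on length and GC content in each library left 15 members called higher and none lower, which is 19.5% higher, beside 3.14% of all genes higher and 1.45% lower. The median of the members was then 0.32 and that of all genes 0.02. Of the 22 calls 14 held and 8 were lost, and Mrpl42 was added (corrected log2 0.62, uncorrected 0.45).

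Mrpl2, Mrpl12, Mrpl14, Mrpl52, Mrps5 and Mrps24, the 6 genes called whichever library was omitted, also held after the correction, with corrected log2 fold changes of 0.83 for Mrpl14, 1.03 for Mrps24, 1.04 for Mrpl12, 0.71 for Mrpl2, 0.83 for Mrps5 and 0.51 for Mrpl52. The largest loss was that of Mrpl34, the shortest member, from 0.63 to 0.01 (corrected adjusted p = 0.969). Mrpl28 (0.43), Mrps21 (0.36), Mrpl38 (0.19), Mrpl41 (0.39), Mrpl55 (0.48) and Mrps7 (0.30) lost their call with a smaller fold, and Mrpl24 with nearly the same fold (0.36, adjusted p = 0.0689). The value of Mrpl15, with 8487 exonic bases, went from 0.45 to 0.77, and that of Mrps9, with 5763, from 0.48 to 0.79. The 8 lost genes had a median length of 1150.5 bases and a median GC content of 54.1%, and the 14 kept ones 2919 bases and 48.1%. Across the members rho with length turned from -0.279 to 0.264, while it was -0.00728 across all genes. The median corrected fold change was 0.28 for the 31 members under 2000 bases and 0.42 for the 22 of 4000 bases or more, against 0.43 and 0.20 before.

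**Figure D4:**
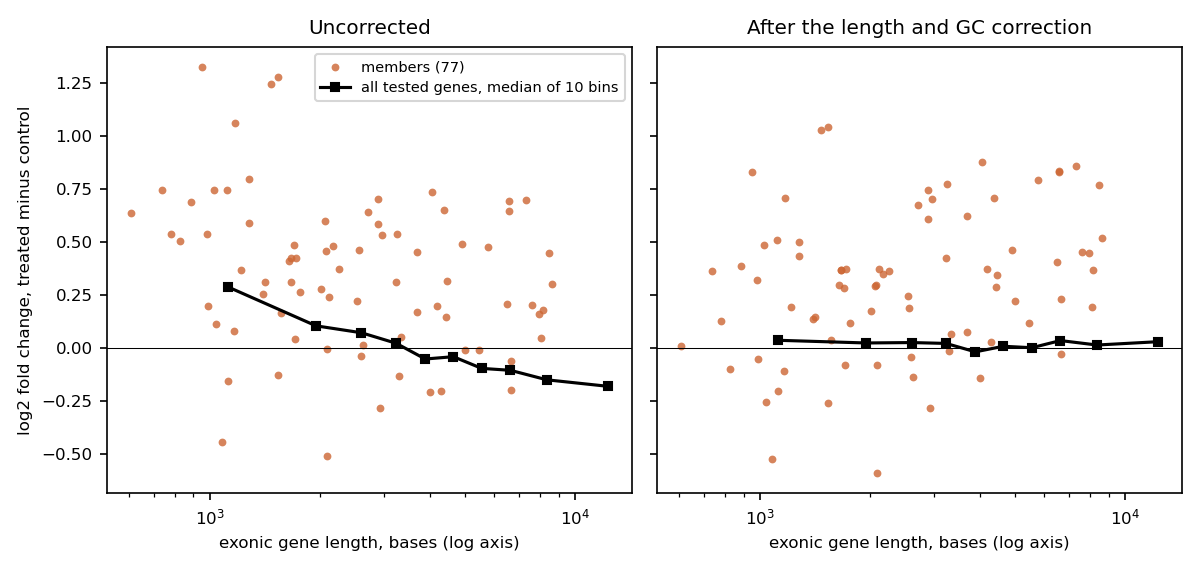
Log2 fold change of each member (orange) against exonic gene length in bases on a log axis, before (left) and after (right) the correction, with black squares for the median of all tested genes in 10 equal bins of length. The black line falls from 0.29 to -0.18 on the left and is near 0 on the right, where the median of the members is 0.32.

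Promoters are shown because many members moved the same way. RefSeq windows on GRCm38.p6, from 250 bases before to 50 after the start of the gene, were found for 68 members. Motifs of 3 factors known from nuclear genes of mitochondria were searched on both strands. CCGGAAG, the core of ETS factors such as GABP, was in 25 of 68 members (36.8%) and in 19.7% of the 9850 tested genes with a window (9.93% of all 27025 genes in the RefSeq table). It was in 7 of the 20 called members with a window and in 18 of the 48 not called. The consensus of NRF1 (nuclear respiratory factor 1) was in 3 members (Mrpl9, Mrpl32 and Mrpl39) and 2.29% of tested genes, and that of YY1 in 5 members and 2.4% of tested genes, each searched as 1 exact run of 10 letters. No called member held the NRF1 or YY1 letters in its window. In the members no match overlapped another. Printed here are 60 bases from before the RefSeq start of Mrpl34 (chr8:71464864-71464923, plus strand) and Mrpl52 (chr14:54426837-54426896, plus strand), with the ETS letters in capitals (CTTCCGG is the motif on the other strand), and the 120 bases before the starts of Mrps24 (chr11:5707702-5707821, minus strand) and Mrpl12 (chr11:120484517-120484636, plus strand), which hold none of the 3 motifs. The RefSeq start of Mrps24 lies inside the longer GENCODE span given above, whose own start on the minus strand is at 5715680.
Mrpl34: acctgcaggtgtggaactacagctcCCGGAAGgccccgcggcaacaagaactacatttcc
Mrpl52: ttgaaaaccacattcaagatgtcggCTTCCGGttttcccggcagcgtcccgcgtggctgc
Mrps24: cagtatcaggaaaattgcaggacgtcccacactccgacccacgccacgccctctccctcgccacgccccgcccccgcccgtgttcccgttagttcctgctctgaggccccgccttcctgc
Mrpl12: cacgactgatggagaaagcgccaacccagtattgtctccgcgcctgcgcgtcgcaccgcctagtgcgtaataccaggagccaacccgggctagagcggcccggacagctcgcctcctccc
Mrps24 and Mrpl12 are shown as strong rises among the called members, and Mrpl34 and Mrpl52 as called members with a match, picked with the matches known. A match is a run of letters and no measured binding, and Mrpl34 with a match and Mrpl12 without one were both called. The call of Mrpl34 was lost after the length and GC correction (corrected log2 0.01), while Mrpl52 and Mrpl12 kept theirs.

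Of 5 ribosomal proteins with other symbols 2 rose, and all 5 had a positive log2 fold change. Gadd45gip1, a large-subunit protein at the exit tunnel, stood at 2.34, 3.93, 3.46 and 2.57 CPM in controls 1 to 4 and at 7.45, 6.69, 8.62 and 7.11 CPM in treated libraries 1 to 4 (log2 fold change 1.28, SE 0.21, adjusted p = 0.011), and Chchd1 of the small subunit rose from 20 ± 2.48 to 27.7 ± 2.68 CPM (log2 fold change 0.47 with SE 0.13; adjusted p = 0.0464), a call lost after the correction (adjusted p = 0.193). Dap3, a small-subunit protein, and Ptcd3 stood at 25.1 ± 6.73 against 28.4 ± 6.51 CPM and 32 ± 4.08 against 34.8 ± 2.05 CPM, neither called. Aurkaip1, a small-subunit protein, was not called either, at 44.9 ± 5.72 against 61.2 ± 7.93 CPM (log2 fold change 0.45, SE 0.13; adjusted p = 0.0612), but each treated library was above each control. Gadd45gip1 was called in 7 of the 8 fits that omit a library and Chchd1 in 1.

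The machinery around the ribosome changed in few genes. Of 80 tested genes in 5 lists, those 5 proteins included, 5 rose and none fell (6.25%, close to the 5.46% of all genes called higher). At an unadjusted p under 0.05, 11 were higher and 4 lower, beside 1809 and 1968 of all 12861 genes tested. The median log2 fold change of the 80 genes was 0.04. Of 26 assembly factors Rcc1l, needed to build the large subunit, rose from 11.1 ± 1.93 to 18.5 ± 2.21 CPM (log2 fold change 0.74 with SE 0.16; adjusted p = 0.0236). Of 13 translation factors Tufm, the elongation factor that brings aminoacyl-tRNA, rose from 67.2 ± 5.85 to 93.8 ± 12.8 CPM (log2 fold change 0.48 with SE 0.13; adjusted p = 0.0448). Of 20 genes of tRNA charging Fars2, for phenylalanine, rose from 21.7 ± 1.84 to 33 ± 2.56 CPM (log2 fold change 0.61 with SE 0.11; adjusted p = 0.014). None of 16 genes of mitochondrial transcription and RNA handling was called by edgeR, DESeq2 or limma-voom (0 higher and 2 lower at an unadjusted p under 0.05), with Lrpprc, which stabilises mitochondrial messenger RNA, at 134 ± 9.94 against 129 ± 3.95 CPM and Hsd17b10, a subunit of mitochondrial RNase P, at 122 ± 33.4 against 161 ± 66.6 CPM. Of the 8 fits that omit a library, Fars2 was called in 7, Rcc1l in 4 and Tufm in 2. After the correction Fars2 and Gadd45gip1 kept their calls, while Rcc1l (adjusted p = 0.0799) and Tufm (adjusted p = 0.133) lost theirs. Without treated library 3 edgeR called 0 of the 80 genes higher, and without control 4 it called 8. DESeq2 called 8 and limma-voom 7 higher with all libraries, and neither called any lower.

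Among 10 regulators of nuclear genes for mitochondria only Esrra was called, an orphan nuclear receptor that acts on oxidative metabolism. It stood at 21.3, 14.1, 13.8 and 15.7 CPM in controls 1 to 4 and at 37.6, 38.2, 33 and 34.7 CPM in treated libraries 1 to 4, with every treated library above every control (log2 fold change 1.15, SE 0.15, adjusted p = 0.00557; corrected log2 1.13), and was called in all 8 fits that omit a library. Its partner Ppargc1a stood at 19.7 ± 17.5 against 12.5 ± 3.88 CPM (adjusted p = 0.46). The control mean of Ppargc1a rested on control 1, at 45.9 CPM, with the other controls at 8.8 to 13.3 CPM. Without control 1 its log2 fold change was 0.19, not called. Nrf1, Gabpa and Yy1, whose motifs were searched above, stood at 11.2 ± 1.77 against 11.6 ± 1.51 CPM, 63.2 ± 4.31 against 64.3 ± 5.0 CPM and 92.5 ± 13.6 against 109 ± 17.1 CPM, none of them called.

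None of the transcripts that this ribosome translates was called higher. Of 13 mitochondrially encoded messenger RNAs 12 were tested, mt-Atp8 having no count in any library, and all 12 had a negative log2 fold change, from -0.92 to -0.05, with a median of -0.43. None was called by edgeR. At an unadjusted p under 0.05, 5 were lower, beside 1968 of all 12861 genes tested. DESeq2 called 3 lower and limma-voom 2, and 3 were called lower after the correction (mt-Nd6, mt-Co2 and mt-Atp6). The most abundant were mt-Co1, at 24788 ± 2950.3 against 23885 ± 3731 CPM, and mt-Cytb, at 9225 ± 2137 against 7484 ± 1285 CPM. Picked with its values in view, mt-Nd6 stood at 563, 609, 963 and 928 CPM in controls 1 to 4 and at 287, 291, 497 and 544 CPM in treated libraries 1 to 4, each treated library below each control (adjusted p = 0.0637). The libraries were made with poly-T beads, and the strand setting is not known. How far either bears on the counts of mt-Nd6 was not tested.

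**Figure D5:**
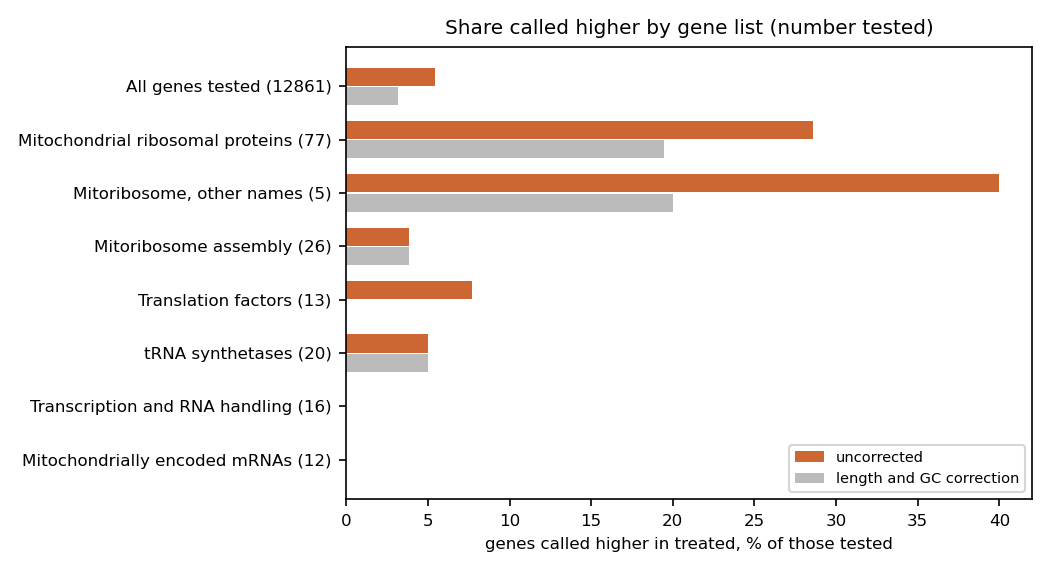
Share of tested genes called higher in treated libraries (horizontal axis, % of the number in brackets) for all genes, the members and the lists around them, before (orange) and after (grey) the length and GC correction. The members stand at 28.6% and 19.5% against 5.46% and 3.14% of all genes.

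Other groups of short genes also held many calls. Of 91 tested cytosolic ribosomal protein genes 40 rose and 1 fell, 44% higher beside 5.46% of all genes (median log2 0.50). After the correction 24 were higher and 2 lower, beside 3.14% of all genes higher (median 0.36), and with a library omitted the count higher ran from 13 to 44. Of 37 Nduf genes of respiratory complex I 21 rose and none fell (56.8% higher, median log2 0.56). After the correction 11 were higher (median 0.44), and with a library omitted the count ran from 6 to 28. The median exonic length was 2255 bases for the 77 members, 1776 for the cytosolic group and 1569 for the Nduf genes, against 4269 over all tested genes. Among all tested genes under 2000 bases 12.9% were called higher, and among those also at a GC content of 55% or more 19.2%. Of the 31 members under 2000 bases 10 rose (32.3%). After the correction 5 of these 31 were higher, beside 100 of the 2029 tested genes under 2000 bases. Differences between these groups were not tested.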

How the data were processed

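RNA was sequenced from 8 mouse liver libraries, 4 treated and 4 control. The deposited table holds read counts per gene and FPKM values, each made by the authors. The tools named in the submitters' processing notes, without role or order, are DESeq2 1.32.0, HTSeq 0.13.5 and HISAT2, with GRCm38 as genome build; the annotation release and strand setting were not given in the sources used here. Per the labels' protocols the library kit was an NEBNext Ultra kit with poly-T beads. FPKM, as deposited, equals count divided by a gene length and the library total, and the length was recovered from it.

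The members and lists were chosen with earlier results of these data known. Counts were tested in R 4.3.3 with edgeR 4.0.16 (filterByExpr with a minimum count of 10, TMM, robust quasi-likelihood F test, group as the only term), with the standard error taken from the F statistic. Scripts were tested on simulated data. The length and GC correction used a spline with 5 degrees of freedom on each property per library (limma 3.58.1 and DESeq2 1.42.0 served in alternatives). GC content, positions and exon overlaps came from GENCODE M21 on GRCm38, where 24540 identifiers matched, the 77 members included. Named members are up to 15 called ones per direction by adjusted p, the 5 highest and 5 lowest by FPKM and the 3 largest uncalled changes each way; the other 7 called members are given to complete the list. For lists, up to 4 called genes, or else the 2 most abundant, are named; others serve to describe a list. Promoter windows are RefSeq's. That of Mrpl14, with none of the searched motifs before its start, is not shown. Exons of Mrpl14 share 106 bases with Tmem63b on the opposite strand.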

Additional observations from a re-analysis of the deposited data

Results flagged for a closer look

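In groups of 4 libraries, a library was singled out where its gap to the nearest other exceeded Dixon's limit for the share of the whole range, which chance passes in about 1 group in 20; 104 groups were checked and 5 passed. The median deviation of the members in control 4, -0.0287 on the log2 scale, stood apart from -0.1873 and below in the other controls. Control 2 was lowest for Mrpl15, at 51.4 CPM with the other controls at 59.3 CPM or more, and for mt-Co1, at 20410 CPM with the others at 25910 CPM or more. Treated library 3 was highest for Mrpl24, at 42.1 CPM against 36.1 CPM or less, and for Mrpl57, at 28.7 CPM against 22 CPM or less.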

How the results depend on the processing

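The median log2 fold change of the members stayed positive and within 0.103 (the SD between libraries of a group) of 0.32 under every alternative run, from 0.25 on log2(FPKM + 1) values to 0.41 without controls 2 and 4. No member called with all libraries changed sign in any fit. With a library left out the count of members called higher ran from 6 to 33, that of members called lower from 0 to 1, that of all genes called from 183 to 2330 and that of the pathway lists from 0 to 8. At an adjusted p under 0.01 the counts were 5 members, 145 genes and 0 pathway genes, with 0.933% of all genes called higher. At 0.1 they were 33 members higher and 1 lower, 2272 genes and 8 pathway genes. Of the 2272 genes, 1193 were higher (9.28% of all tested) and 1079 lower. The DESeq2 Wald test called 2213 genes, 1 member lower and 8 pathway genes higher, and limma-voom 2088 genes and 1 member lower. The length and GC correction left 590 genes and 3 pathway genes. Upper quartile factors, library size alone and leaving out controls 2 and 4 left 3 pathway genes each. The replicate numbers of the labels were taken as names only. The correlation of deviations between same-numbered libraries was 0.177, 0.0589, -0.0124 and 0.0697, and between the others it ran from -0.207 to 0.176. Of the controls only control 1 correlated best with the treated library of its own number. So few values cannot settle whether the libraries were paired. With the replicate block 16 members and 944 genes were called (4.64% of all genes higher). With the replicate block and the correction together the counts were 15 members, 486 genes and 2 pathway genes (2.6% of all genes higher). The cause of these shifts was not tested. Member counts per library began at 34, for Mrpl33.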
